A study of Mus musculus with 4 samples.

Results

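Collagen genes are described here across 4 stages of mouse testis. They are the entries of the gene column whose symbol is COL, a number, A and a number, which gave 44 of the 112302 entries in each of the 4 deposited tables. They were split by textbook role into 8 fibrillar, 9 basement membrane, 7 cartilage and 20 other collagens. Of the 44 genes, 36 reached 1 RPKM (reads per kilobase of gene model, scaled to the total reads of the library) in any library: 6 fibrillar, 8 basement membrane, 7 cartilage and 15 other collagens. Col5a3, Col24a1, Col7a1, Col8a1, Col13a1, Col17a1, Col19a1 and Col28a1 stayed below it in all 4 libraries.

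The study sequenced RNA of BALB/C mouse testis at embryonic day 14 (E14), embryonic day 18 (E18), 3 weeks and 6 months after birth, with 1 library per stage. The RNA was bought from the supplier Zyagen, and how many animals gave each sample, and how the tissue was dissected, is not given in the sources used here. Ribosomal RNA was depleted, ERCC control RNA was mixed in, polyadenylated molecules were selected and a directional NEBNext kit was used per the labels' protocols, although the labels' description and the design text name only the depletion of ribosomal RNA. No library had a replicate, so differences between stages are descriptions of 4 libraries, with no p-value, and the intervals given are exact 95% intervals of the recovered reads that cover counting error only.

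Collagens are secreted proteins of 3 chains wound into a triple helix. Fibrillar collagens assemble into the cross-striated fibrils of connective tissue, type IV collagens form the sheet-like network of basement membranes, and types II, IX, X and XI are characteristic of cartilage. In the testis, the seminiferous cords and later the tubules rest on a basement membrane, outside which lie the peritubular myoid cells, fibroblasts, vessels and the collagen of the interstitium and of the capsule.

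The totals behind the RPKM were between 33952471 reads (3 weeks) and 38903334 reads (E14), and whole reads were recovered for all 44 collagen genes. The E14 library, labelled testis, held little of the Sertoli cell markers (summed RPKM of 11 genes 11.1, with Fshr alone at 0) beside 105 at E18, 153 at 3 weeks and 164 at 6 months. At E14, 3 of the 11 reached 1 RPKM, namely Sox9 (4.00), Cldn11 (3.08) and Wt1 (1.64). Sox9 went the other way from the sum, at 2.12, 3.08 and 1.49 RPKM in the later libraries. Markers of other tissues were high in the fetal libraries. The 8 skeletal muscle markers summed to 211, 46.8, 1.16 and 0.818 RPKM at E14, E18, 3 weeks and 6 months, and the 6 liver markers to 302, 59.3, 0.673 and 0.990. The 6 kidney tubule markers were highest at E18 (2.16, 32.1, 1.68 and 2.26 RPKM), as were the 5 bladder urothelium markers (9.27, 46.1, 0.951 and 0.381). Of the 11 germ cell markers the sum was 2.63, 19.5, 635 and 6066 RPKM. Neuron and epidermis markers were highest at E14 (summed RPKM 48.6 and 36.5) and Leydig cell markers at 6 months (570), while the macrophage sum stayed between 11.1 and 16.8. In such bulk samples, fewer cells of a type and less RNA per cell cannot be told apart, and RPKM is a share of each library's reads.

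RefSeq windows of the 250 bases before a gene start (build GRCm38.p6) were present for 35 of the 44 genes, as 38 windows. The sequences shown belong to genes described below, and no RNA level below was derived from them. The first is the promoter of Col3a1, the most abundant collagen transcript in 3 of the 4 libraries. The promoter of Col8a2 is one of the 2 windows with the most GGGCGG, the other being that of Col8a1. Next is the promoter of Col20a1, one of the collagens that was higher at 6 months. The last is the 71 bases that separate the oppositely oriented starts of Col4a4 and Col4a3, genes that were higher together at 3 weeks. The sequences are written 5′ to 3′ in lower case, with the motifs counted below, on either strand, in capitals.
Col3a1, plus strand, chr1:45311288-45311537: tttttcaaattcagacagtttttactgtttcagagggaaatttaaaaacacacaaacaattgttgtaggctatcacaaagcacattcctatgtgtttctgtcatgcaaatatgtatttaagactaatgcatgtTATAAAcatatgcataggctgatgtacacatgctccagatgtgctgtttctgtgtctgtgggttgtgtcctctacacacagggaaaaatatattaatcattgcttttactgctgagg
Col8a2, plus strand, chr4:126286544-126286793: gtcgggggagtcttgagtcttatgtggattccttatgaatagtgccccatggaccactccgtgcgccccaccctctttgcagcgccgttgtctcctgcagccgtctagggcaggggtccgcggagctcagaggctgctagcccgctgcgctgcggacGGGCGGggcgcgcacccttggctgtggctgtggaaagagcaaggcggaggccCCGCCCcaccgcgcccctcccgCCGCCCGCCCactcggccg
Col20a1, plus strand, chr2:180986285-180986534: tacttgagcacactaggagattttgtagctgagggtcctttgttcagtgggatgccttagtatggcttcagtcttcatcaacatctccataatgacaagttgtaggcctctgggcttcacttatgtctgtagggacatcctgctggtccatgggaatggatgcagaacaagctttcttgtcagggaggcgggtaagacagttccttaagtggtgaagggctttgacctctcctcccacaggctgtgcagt
Col4a4 to Col4a3, minus strand, chr1:82586850-82586920: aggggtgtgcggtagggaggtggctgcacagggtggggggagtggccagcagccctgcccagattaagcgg
The Col3a1 window held 1 TATAAA, the Col8a2 window 4 copies of GGGCGG counted on both strands, and the Col20a1 window and the Col4a4 to Col4a3 stretch none of the 4 motifs. That stretch was 69.0% G and C. Among the 38 collagen windows, searched on both strands, GGGCGG (the GC box) was in 57.9%, against 32.7% of all 32851 windows of the same length. CCAAT was in 34.2% against 33.8%, TATAAA in 13.2% against 12.4%, and TGACGTCA in 0% against 1.55%. No 2 of these motifs share letters in a way that one match implies another. A match is a run of letters only and says nothing of a factor's binding.

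Collagen RNA was abundant in the fetal libraries and low after birth. The 44 genes summed to 341 RPKM at E14 and 397 at E18, then 84.0 at 3 weeks and 34.6 at 6 months, from at least 91345, 100344, 21023 and 8480 recovered reads. The make-up also differed by stage. Fibrillar collagens made 26.1% of the summed collagen RPKM at E14 and 28.4% at E18, then 31.7% at 3 weeks and 6.12% at 6 months. Basement membrane collagens made 14.2%, 26.8%, 33.9% and 21.7% at the same stages. Cartilage collagens were 28.7% at E14 and then 1.15%, 6.90% and 11.3%, while the other collagens were 31.0%, 43.6%, 27.5% and 60.9%. Col9a3, whose overlap with Tcfl5 is described below, alone made 78.8% of the cartilage sum at 3 weeks and 81.5% at 6 months. Col3a1 was the most abundant collagen at E14, E18 and 3 weeks, and at 6 months it was Col22a1, with 18.02% of the collagen sum.

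**Figure D1:**
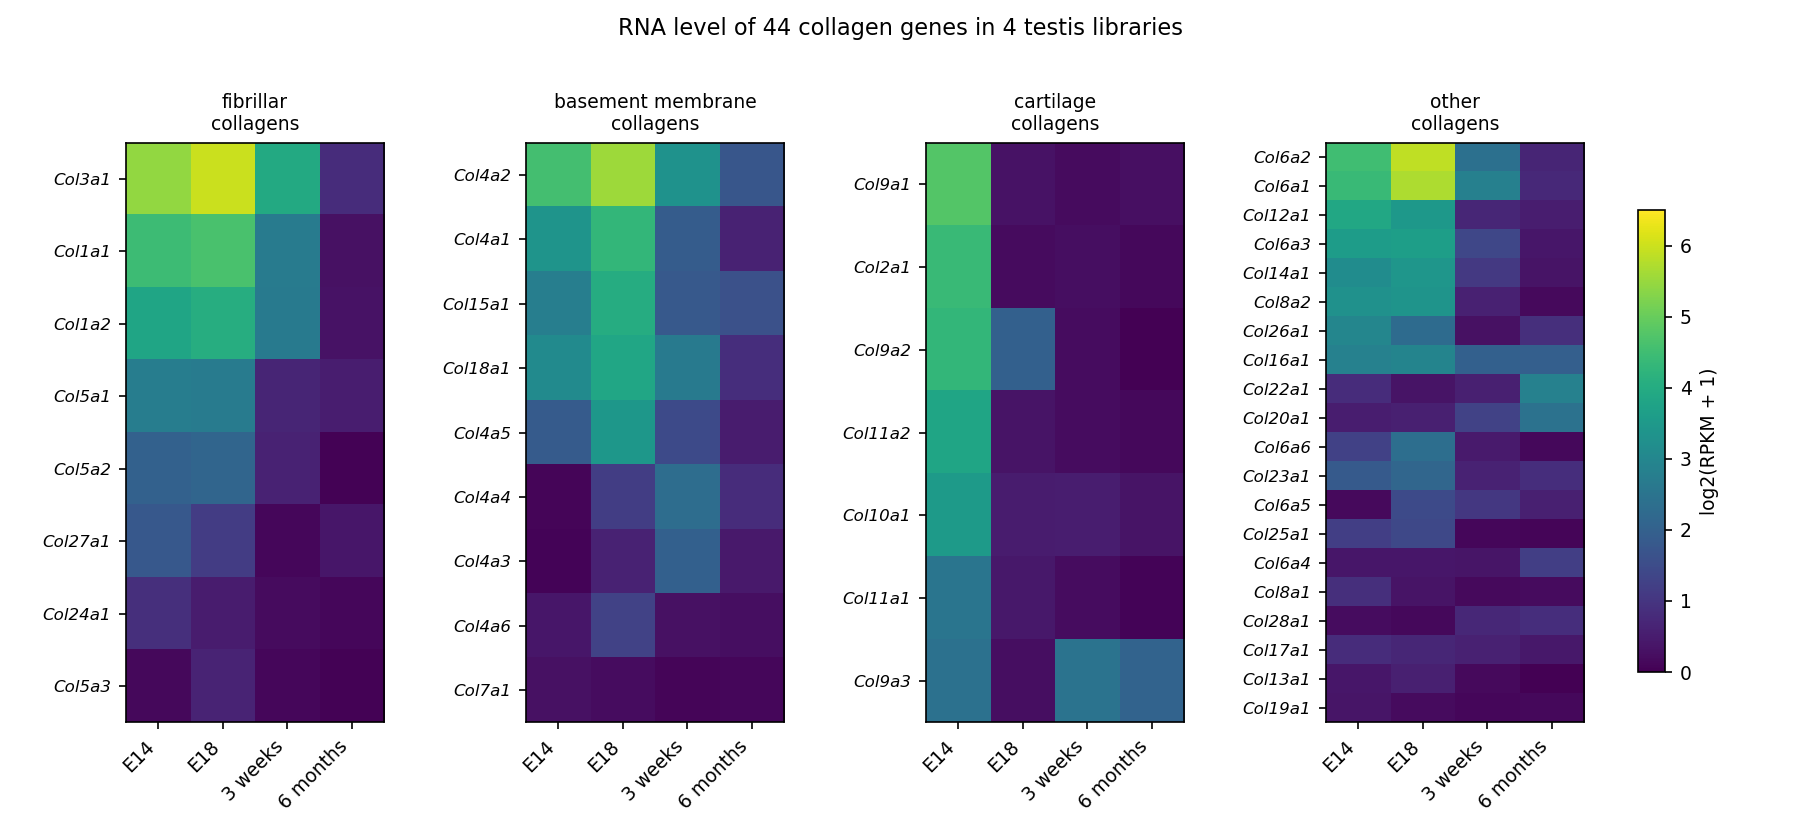
RNA level of the 44 collagen genes, as log2(RPKM + 1), in the 4 libraries (columns, 1 library per stage), by class and, within a class, from the highest to the lowest maximum. Most fibrillar, basement membrane and other collagens are brightest at E18, the cartilage collagens other than Col9a3 at E14 (Col9a3 at 3 weeks, just above its E14 level), and Col22a1, Col20a1 and Col6a4 at 6 months.

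**Figure D2:**
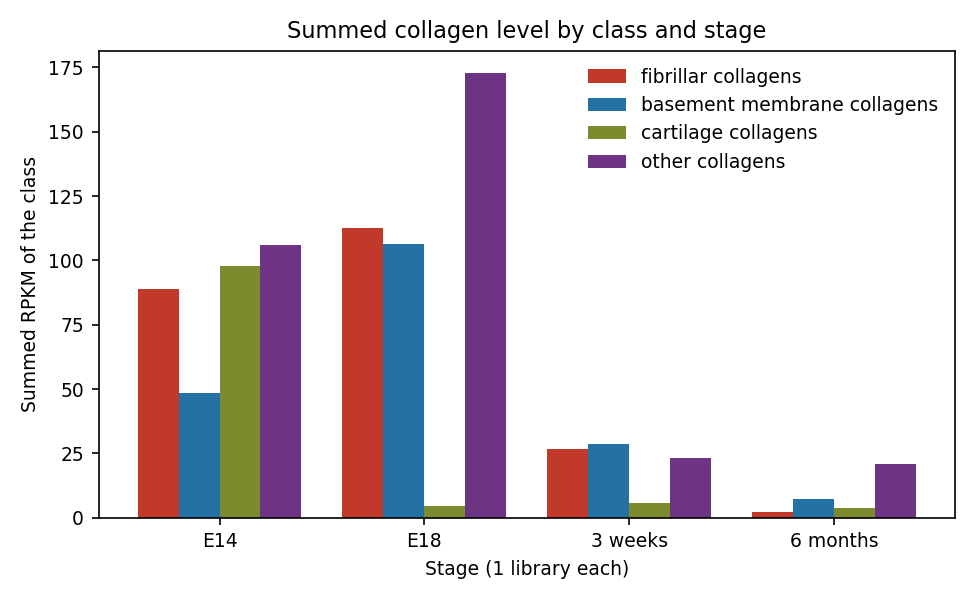
Summed RPKM of each of the 4 collagen classes (bars) by stage, with 1 library per stage and no error bars. The cartilage class stands at 98.0 at E14 and at most 5.80 later, and the fibrillar class at 113 at E18 and 2.12 at 6 months.

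The highest of the 4 levels was at E18 for 20 of the 36 genes that reached 1 RPKM, at E14 for 10, at 3 weeks for 3 and at 6 months for 3. The protein-coding entries past the same filter were spread otherwise: 14.3% were highest at E14 and 24.8% at E18, then 35.4% at 3 weeks and 25.5% at 6 months. The 3 genes highest at 3 weeks were Col4a3, Col4a4 and Col9a3. Those highest at 6 months were Col20a1, Col22a1 and Col6a4.

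Differences between adjacent stages were taken as log2(RPKM + 1) of the later minus the earlier library and called from 2-fold, a difference of 1. At E18 against E14, 8 of the 36 genes were higher, where 2.17% of all 42964 entries past the filter were higher, and 7 were lower, where 1.34% of all entries were. With E14 left out of the filter, an alternative chosen after the values were seen, 2 were lower, where 0.769% of all entries were. Of the protein-coding entries, 3.54% were higher and 1.64% lower. With libraries rescaled to equal ribosomal protein RNA, 4 were higher and 7 lower, where 1.06% and 1.09% of all entries were. The median difference of the 36 was 0.12, and that of all entries 0.03. At 3 weeks against E18, 3 genes were higher and 23 lower, with 32.0% of all entries higher and 10.5% lower, and 24.1% and 13.2% of the protein-coding ones. With ribosomal protein scaling 15 were lower, where 3.01% of all entries were. Here the median of the collagens was −1.44 and that of all entries 0.46. At 6 months against 3 weeks, 2 genes were higher and 10 lower, with 9.73% of all entries higher and 14.1% lower, and 9.52% and 7.87% of the protein-coding ones. Without a pseudocount, among genes with at least 3 reads in both libraries, 5 were higher and 18 lower. Under that setting 13.6% of all entries were higher and 33.1% lower. With the pseudocount of 1, the median was −0.28 for the collagens and −0.31 for all entries. Under the setting without a pseudocount it was −1.12 for the collagens and −0.55 for all entries. For each of these calls the counting interval of the RPKM ratio left out 1.

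**Figure D3:**
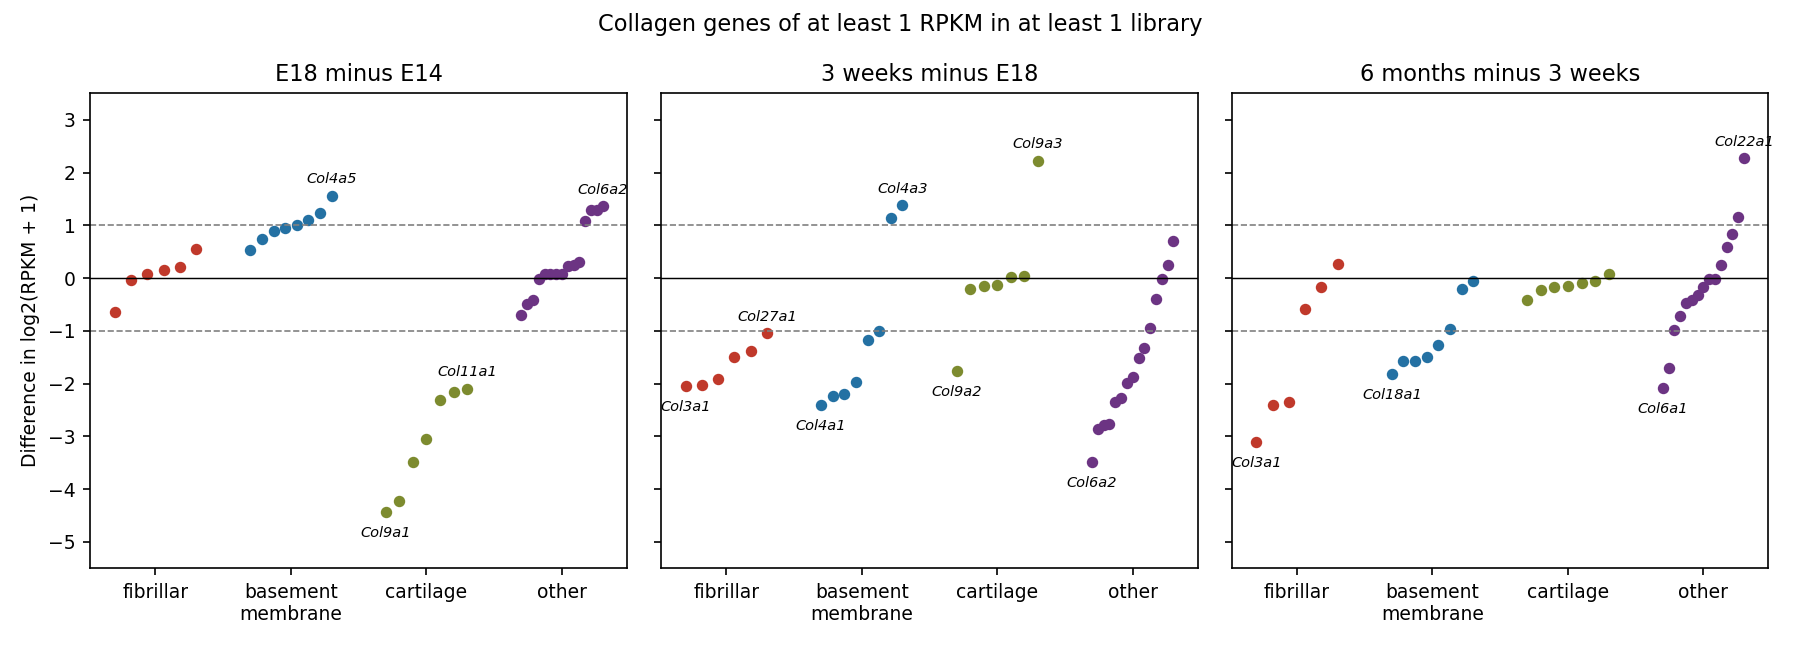
Difference in log2(RPKM + 1) of the 36 collagen genes that reached 1 RPKM in any library, for each pair of adjacent stages (panels, later minus earlier), by class (colours). Dashed lines mark 2-fold, and the genes at either end of a class are named where they pass it. The cartilage points lie between −4.43 and −2.10 at E18 against E14, and the fibrillar points all lie below −1 at 3 weeks against E18.

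Among the fibrillar collagens, the chains of types I and III were high in both fetal libraries, lower at 3 weeks and below 1 RPKM at 6 months. Col3a1, the single chain of type III collagen of elastic soft tissue, measured 42.6 RPKM at E14 and 62.5 at E18, then 14.3 at 3 weeks and 0.773 at 6 months. Col1a1, the alpha-1 chain of type I collagen, measured 21.0, 23.6, 5.52 and 0.230 RPKM. Col1a2, its partner alpha-2 chain, measured 13.2, 15.5, 5.32 and 0.244 RPKM. Both fetal libraries were high, 3 weeks intermediate and 6 months low for each of the 3 genes. No fibrillar collagen passed 2-fold at E18 against E14. All 6 that reached 1 RPKM were lower at 3 weeks than at E18, and Col1a1, Col1a2 and Col3a1 were lower again at 6 months than at 3 weeks, on the log2(RPKM + 1) scale by −2.41, −2.35 and −3.11. As plain ratios of RPKM, the 3-week level was 24.0 times the 6-month level for Col1a1 (interval 18.3 to 32.2), 21.8 times for Col1a2 (17.96 to 26.8) and 18.5 times for Col3a1 (16.2 to 21.2). Col3a1 stood at the 99.3rd percentile of protein-coding entries at E14 and at the 52.5th at 6 months.

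The fibril-regulating type V chains were lower than types I and III at E14, E18 and 3 weeks, while at 6 months Col5a1 was above Col1a1 and Col1a2. Col5a1 measured 5.70, 5.52, 0.604 and 0.434 RPKM at the 4 stages, and Col5a2 measured 3.09, 3.33, 0.534 and 0.0262. Both were already below 1 RPKM at 3 weeks, and Col5a2 rested at 6 months on at least 3 reads, the smallest whole number that gives its value. The Col5a1 model shares 113 exonic bases with the opposite-strand transcript Gm13372, at 1.91, 1.44, 0.0856 and 0.650 RPKM. It shares 99 with 2810430I11Rik, also of the opposite strand, at 0.963, 0.847, 0.0604 and 0.0245 RPKM. The part of their reads in the Col5a1 level was not tested. Col27a1, a fibrillar collagen known from cartilage, measured 2.47, 1.24, 0.0859 and 0.309 RPKM and was 3.59 times as high at 6 months as at 3 weeks (2.499 to 5.28), a change below 2-fold on the log2(RPKM + 1) scale. Col24a1 did not exceed 0.823 RPKM and Col5a3 did not exceed 0.566.

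Ratios between chains of one library do not depend on its scaling. Type I collagen protein is mostly built of 2 alpha-1 chains and 1 alpha-2 chain. The RPKM ratios are of RNA and do not measure chains in protein. Their size also depends on the model lengths, 6563 bases for Col1a1 and 12136 for Col1a2. The ratio of Col1a1 to Col1a2 RPKM was 1.59 at E14 (1.53 to 1.65), 1.52 at E18 (1.47 to 1.58), 1.04 at 3 weeks (0.966 to 1.11) and 0.942 at 6 months (0.666 to 1.32). It was thus higher in both fetal than in both postnatal libraries beyond counting error. The ratio of Col3a1 to Col1a1, computed after the values were seen, was 2.03, 2.65, 2.59 and 3.37. That of Col5a1 to Col5a2 was 1.85, 1.66 and 1.13 at the first 3 stages and 16.6 at 6 months, there with an interval of 5.43 to 82.4. The part of the transcripts that overlap Col5a1 in this ratio was not tested.

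Basement membrane collagens were the class that was higher at E18 than at E14 most often, with 4 of the 8 measured genes past 2-fold and a class median of 0.97. Col4a2, with Col4a1 the chain of the basement membrane network found in nearly all tissues, was the most abundant at every stage, at 22.4 RPKM at E14 and 45.8 at E18, then 8.89 at 3 weeks and 2.33 at 6 months. Col4a1 measured 9.32, 18.8, 2.72 and 0.544 RPKM. Both followed the same order of stages. These 2 genes lie head to head on chr8 and share 22 exonic bases on opposite strands. The Col4a1 to Col4a2 ratio was 0.417 at E14 (0.397 to 0.437) and 0.411 at E18, 0.306 at 3 weeks (0.279 to 0.335) and 0.234 at 6 months (0.192 to 0.283). In the protein network, 2 alpha-1 chains go with 1 alpha-2 chain, which RPKM ratios of RNA do not measure.

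Col4a3 and Col4a4, chains of the type IV network that is needed in the kidney glomerulus and is mutated in Alport syndrome, went against the other measured genes of the class from E18 to 3 weeks. Col4a3 (chr1:82586921-82722059, plus strand) measured 0.0542 RPKM at E14 and 0.533 at E18, then 3.01 at 3 weeks and 0.353 at 6 months, from 21, 182, 1017 and 126 reads. Col4a4 (chr1:82448423-82586849, minus strand) measured 0.0618, 1.27, 3.98 and 0.759 RPKM, from 20, 362, 1124 and 226 reads. For both genes the 3-week library was the highest of the 4 and E14 the lowest. At 3 weeks Col4a3 was 5.63 times its E18 level (4.81 to 6.63) and Col4a4 3.13 times (2.78 to 3.53), and at 6 months both were lower than at 3 weeks, by log2 differences of −1.57 and −1.50. Over the same step from E18, Col4a1 was lower at 3 weeks, its E18 level being 6.92 times that at 3 weeks (6.36 to 7.53). The Col4a3 to Col4a1 ratio, also computed after the values were seen, was 0.00581 at E14 and 0.0284 at E18, then 1.11 at 3 weeks and 0.650 at 6 months. Of the summed type IV RPKM, Col4a3 and Col4a4 made 0.333%, 2.33%, 34.0% and 24.4%, while Col4a1 and Col4a2 made 91.1%, 83.2%, 56.5% and 62.9%.

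Kidney expresses these chains, and the E18 library held kidney tubule markers at a sum of 32.1 RPKM; their part in the E18 levels was not tested. At 3 weeks the 6 markers summed to 1.68 RPKM, with Aqp2 at 0.603, Slc5a2 at 0.528 and Lrp2 at 0.506. Only Slc34a1, the phosphate carrier of the proximal tubule, was at 0. The part of kidney in the 3-week levels was not tested either. The Col4a3 model shares 563 exonic bases with the opposite-strand transcript C430014B12Rik, which measured 1.08, 1.49, 0.912 and 2.57 RPKM and was lowest at 3 weeks. Rhbdd1, the neighbour beyond Col4a4, measured 0.959, 1.33, 3.65 and 7.84 RPKM. Mff, which lies 2830 bases from Col4a3 on the same strand, measured 5.64, 6.85, 22.4 and 20.8 RPKM and so was also higher at 3 weeks than at E18.

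**Figure D4:**
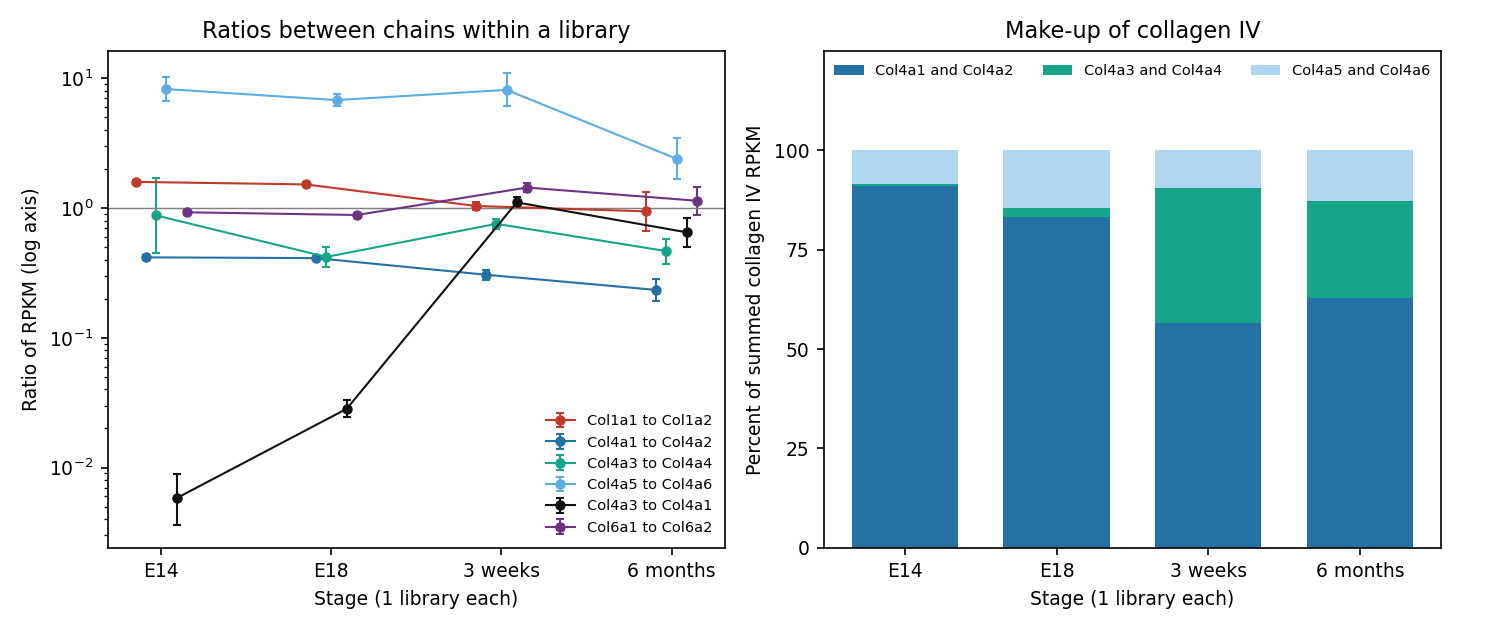
Left, ratios of RPKM between collagen chains of one library (log axis) with exact 95% counting intervals, and right, the share of each chain pair in the summed type IV RPKM, by stage with 1 library each. The Col4a3 to Col4a1 ratio is below 0.03 in both fetal libraries and 1.11 at 3 weeks, where Col4a3 and Col4a4 make 34.0% of type IV.

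Col4a5, the X-linked partner of Col4a3 and Col4a4, measured 2.66, 9.77, 1.74 and 0.411 RPKM, and Col4a6 measured 0.322, 1.44, 0.214 and 0.172. Both were highest at E18. Their ratio was 8.25, 6.79 and 8.14 at the first 3 stages and 2.40 at 6 months (1.68 to 3.45). Unlike Col4a3 and Col4a4, Col4a5 was lower at 3 weeks than at E18, by a log2 difference of −1.97.

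Types XV and XVIII, which attach basement membranes to the tissue beneath, differed from each other after 3 weeks. Col15a1 measured 5.89 RPKM at E14 and 15.1 at E18, then 2.52 at 3 weeks and 2.04 at 6 months. Col18a1, whose end fragment is endostatin, measured 7.69, 13.5, 5.40 and 0.816 RPKM. At 6 months Col15a1 was at 0.812 of its 3-week RPKM (0.717 to 0.919) and Col18a1 at 0.151 (0.130 to 0.175), 2 intervals that do not overlap. Col7a1, the collagen of the anchoring fibrils of skin, did not exceed 0.229 RPKM.

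All 7 cartilage collagens were past 2-fold lower at E18 than at E14 on the log2(RPKM + 1) scale, and none of the other 29 measured collagens was. Of the 7, all but Col9a2 and Col9a3 passed the filter only through E14, so the filter in part fixed this count. Outside the class, the plain E18 to E14 ratio was also below 1 beyond counting error for genes such as Col22a1, at 0.342 (0.264 to 0.438), and Col27a1, at 0.501 (0.452 to 0.554). Col2a1, the fibrillar collagen of cartilage, measured 20.4 RPKM at E14 and 0.145 at E18, then 0.176 at 3 weeks and 0.102 at 6 months, so that the E14 level was 140 times that at E18 (84.7 to 251). Col9a1, a chain of the type IX collagen that coats cartilage fibrils, measured 25.9, 0.251, 0.132 and 0.196 RPKM. Col9a2 measured 18.6, 2.97, 0.171 and 0 RPKM, and the interval of the 0 reads at 6 months reaches up to 0.0333 RPKM. Only the E14 library was high for Col2a1 and Col9a1, while Col9a2 was still above 1 RPKM at E18. Col10a1, the collagen of hypertrophic cartilage, measured 10.7, 0.420, 0.433 and 0.277 RPKM. Col11a1 and Col11a2, chains of the thin cartilage fibrils, measured 4.74 and 13.3 RPKM at E14 and at most 0.339 at any later stage.

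The cartilage markers, none of them a collagen, moved with this class from E14 to E18. Of the 9 markers 8 reached 1 RPKM and all 8 were lower at E18, but Acan, Matn1, Matn3, Matn4 and Hapln1 reached it only at E14, so the filter in part fixed this count too. The sum of the 9 was 2.17 RPKM at E18 against 57.2 at E14. Matn1, a matrix protein found almost only in cartilage, was at 0.0146 RPKM at E18 against 16.5 at E14. Bone and skeletal muscle marker sums were lower as well, at 7.69 and 46.8 RPKM at E18 against 14.8 and 211 at E14. Their part in the collagen levels was not tested. Later the marker sum was 16.9 RPKM at 3 weeks and 43.8 at 6 months, of which Comp, also a tendon protein, made 10.8 and 38.8, while Matn1 was at 0.0147 and 0 and Acan, the main cartilage proteoglycan, at 0.0237 and 0.0112. Epyc, a small proteoglycan, measured 4.12 RPKM at 3 weeks and 3.63 at 6 months after 0.468 at E18, and LECT1 (chondromodulin) 1.74 and 1.29 after 0.650.

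Col9a3 differed from its partner chains after birth. It measured 4.34 RPKM at E14 and 0.190 at E18, then 4.57 at 3 weeks and 3.20 at 6 months, from 651, 25, 598 and 441 reads. It was 24.1 times as high at 3 weeks as at E18 (16.2 to 37.6), when Col9a1 and Col9a2 were at 0.527 and 0.0576 of their E18 levels. Col9a3 (chr2:180597790-180622189, plus strand) shares 234 exonic bases with Tcfl5, a gene of the opposite strand whose product is a germ cell transcription factor. Tcfl5 measured 0.292, 1.24, 42.7 and 38.7 RPKM at the same stages. Whether the counting kept the strands apart is not given in the sources used here, and the part of Tcfl5 reads in the Col9a3 level was not tested.

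Type VI collagen, which forms beaded microfilaments next to basement membranes, led the remaining collagens before birth. Col6a2 measured 21.7 RPKM at E14 and 57.4 at E18, then 4.23 at 3 weeks and 0.600 at 6 months, and Col6a1 measured 20.1, 50.7, 6.09 and 0.682. Col6a3, the long alpha-3 chain, measured 11.0, 11.6, 1.60 and 0.320 RPKM. E18 was the highest stage for all 3, but the first 2 were 2.65 and 2.52 times as high at E18 as at E14 and Col6a3 was 1.05 times as high (1.01 to 1.10). The Col6a3 to Col6a2 ratio was accordingly 0.508 at E14 and 0.202 at E18, then 0.378 at 3 weeks and 0.533 at 6 months. Smooth muscle and peritubular markers, of which all 6 were higher at E18, summed to 789 RPKM at E18 against 209 at E14, and the 5 fibroblast markers to 69.7 against 26.4. Their part in the type VI levels was not tested.

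The 3 chains that can take the place of Col6a3 each had their own order of stages, although their genes lie side by side on chr9. Col6a5 measured 0.124, 1.75, 1.08 and 0.497 RPKM and Col6a6 measured 1.39, 4.08, 0.386 and 0.108, both highest at E18. Col6a4 measured 0.323, 0.305, 0.294 and 1.32 RPKM and was highest at 6 months, at 4.50 times its 3-week level (3.55 to 5.75). That change stayed below 2-fold on the log2(RPKM + 1) scale, at 0.84. Col6a4 shares 162 and 127 exonic bases with the opposite-strand transcripts Gm47575 and Gm36993, for which no RPKM value was found. Their part in its level was not tested.

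Of the collagens that decorate fibrils, Col12a1 and Col14a1 were high in the fetal libraries, Col16a1 differed less between stages, and Col20a1 and Col22a1 were highest at 6 months. Col12a1, found on fibrils of dense connective tissue, measured 13.8, 10.1, 0.611 and 0.434 RPKM. Col14a1 measured 8.02, 9.66, 1.10 and 0.271 RPKM. Col16a1 measured 6.28, 6.64, 2.98 and 2.93 RPKM, and its 6-month level was 0.983 of that at 3 weeks (0.884 to 1.09). Col16a1 and Col15a1 were thus the collagens of at least 2 RPKM at 3 weeks that lay within 1.5-fold of that level at 6 months, with Col9a3.

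Col22a1, known from tissue junctions such as the end of muscle fibres at the tendon, measured 0.771 RPKM at E14 and 0.263 at E18, then 0.493 at 3 weeks and 6.23 at 6 months, from 276, 83, 154 and 2054 reads. Its 6-month level was 12.6 times the 3-week level (10.7 to 15.0), and the 6-month library alone was above 1 RPKM. Col20a1, a collagen of the same family of fibril-associated proteins, measured 0.423, 0.495, 1.43 and 4.44 RPKM, from 69, 71, 203 and 666 reads. It was 3.11 times as high at 6 months as at 3 weeks (2.65 to 3.66) and 2.88 times as high at 3 weeks as at E18 (2.19 to 3.83). Col22a1 (chr15:71795795-72034227, minus strand) stood at the 86.2nd percentile of protein-coding entries at 6 months, and Col20a1 (chr2:180986535-181018363, plus strand) at the 81.8th. The transcript Gm16308, which shares 16 exonic bases with Col22a1 on the other strand, did not exceed 0.0932 RPKM. Chrna4, whose model ends 16 bases from that of Col20a1, was at 0.161 RPKM at 3 weeks and 0.153 at 6 months. Col20a1 also shares 79 exonic bases with the same-strand transcript BX649560.1, for which no RPKM value was found. Its part in the Col20a1 level was not tested. Skeletal muscle markers summed to 0.818 RPKM at 6 months against 1.16 at 3 weeks.

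Network-forming and membrane-bound collagens were mostly fetal. Col8a2, a chain of the type VIII collagen of vessel walls and of the cornea, measured 8.73, 9.27, 0.512 and 0.131 RPKM, and its partner Col8a1 measured 0.820, 0.274, 0.127 and 0.142. The Col8a1 to Col8a2 ratio was 0.0296 at E18 and 1.09 at 6 months (0.588 to 2.03), the last from 26 and 21 reads. Of the collagens with a membrane-spanning segment, Col23a1 measured 2.57, 3.39, 0.527 and 0.811 RPKM, and Col25a1 measured 1.30, 1.68, 0.0742 and 0.0677. Col13a1 and Col17a1 did not exceed 0.495 and 0.775 RPKM. Col26a1, described from mouse testis and ovary, measured 6.88, 3.84, 0.217 and 0.836 RPKM, and was 3.86 times as high at 6 months as at 3 weeks (2.75 to 5.52). It also has an entry under its older symbol Emid2, at 9.63, 5.42, 0.303 and 1.15 RPKM, which is not among the 44. Col28a1 measured 0.163, 0.102, 0.650 and 0.793 RPKM and Col19a1 did not exceed 0.301.

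Genes that make, cross-link and degrade collagen were counted in 6 lists. The shares of all entries past 2-fold at E18 against E14 were 2.17% higher and 1.34% lower. Of 20 measured genes for folding and modification and 5 receptors none did. Of 8 genes for propeptide removal and cross-linking, 2 were higher (Adamts2 and Pcolce, which act on procollagen ends). Of 13 basement membrane partners 1 was higher (Lama2, a laminin chain), and of 8 genes for degradation 1 (Timp3, an inhibitor of the proteases). Of 13 small proteoglycans and fibril partners 4 were higher and 1 lower. Decorin, which binds type I fibrils, was at 150 RPKM at E18 against 43.9 at E14 (Dcn), and Tnxb, a tenascin, at 3.53 against 0.617.

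At 3 weeks against E18 many genes of every list were lower, namely 11 of 20 genes for folding and modification, 6 of 8 for propeptide removal and cross-linking, 7 of 13 proteoglycans and partners, 9 of 13 basement membrane partners, 3 of 5 receptors and 4 of 8 genes for degradation. Of all entries, 10.5% were lower. Serpinh1, the collagen chaperone HSP47, was at 2.42 RPKM at 3 weeks against 35.2 at E18, and Lox, the cross-linking lysyl oxidase, at 1.11 against 19.9. Mmp2, a gelatinase, was at 2.56 RPKM against 57.0, and Lum, a small proteoglycan, at 3.11 against 38.8. Omd, another small proteoglycan, was the only gene of the 6 lists past 2-fold higher on the log2(RPKM + 1) scale, at 3.52 against 0.400 RPKM. As plain ratios, Mia3 and CTAGE5, which help export procollagen from the endoplasmic reticulum, were 2.53 (2.19 to 2.93) and 1.74 times (1.57 to 1.91) as high at 3 weeks as at E18.

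At 6 months against 3 weeks, 9 of 13 proteoglycans and partners were lower, beside 3 of 13 basement membrane partners, 2 of 20 genes for folding, 2 of 8 for degradation, 1 of 5 receptors and 0 of 8 for cross-linking. Of all entries 14.1% were lower. The pseudocount of 1 kept low genes of the cross-linking list below 2-fold. Lox was at 0.113 RPKM at 6 months against 1.11 at 3 weeks, and Loxl2 at 0.227 against 1.14. Only Pcolce (3.86 against 1.93) and Loxl1 (1.22 against 0.679) of these 8 were higher. Plod2, a lysyl hydroxylase, was at 0.775 RPKM at 6 months against 6.16 at 3 weeks, Sparc, a collagen-binding protein, at 8.13 against 30.2, and Dcn at 9.11 against 32.4. As a plain ratio, Dcn at 3 weeks was 3.55 times its 6-month level (3.26 to 3.87), where Col1a1 was 24.0 times. Dcn does not stand for its list. Lum differed more, at 0.498 RPKM at 6 months against 3.11 at 3 weeks, and Ogn less, at 3.88 against 12.1.

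The fibrillar sum differed more between the postnatal libraries than the sum of the fibroblast markers did. The 5 markers summed to 2.14 RPKM at 6 months against 8.73 at 3 weeks, so that the 3-week sum was 4.09 times the 6-month sum, and the fibrillar sum 12.6 times (2.12 RPKM at 6 months against 26.6 at 3 weeks). Divided by the marker sum of its own library, the fibrillar sum was 3.37 at E14 and 1.62 at E18, then 3.05 at 3 weeks and 0.991 at 6 months. For basement membrane collagens the same ratio was 1.84, 1.53, 3.27 and 3.51, and for the other collagens 4.01, 2.48, 2.64 and 9.85. The order depended on the markers: divided by the endothelial sum, basement membrane collagens were at 2.32 at 6 months against 5.69 at 3 weeks, and divided by the peritubular and smooth muscle sum at 0.107 against 0.618. The other collagens were at 6.52 against 4.61 by the endothelial sum and at 0.299 against 0.5003 by the peritubular one. The peritubular sum was mostly 1 gene at 6 months: Actg2 made 57.5 of its 70.4 RPKM, against 2.73 of 46.2 at 3 weeks. Of its 6 markers 1 was higher past 2-fold at 6 months and 4 were lower. The ratios by this sum at 6 months therefore rest largely on Actg2. The fibrillar ratio was lower at 6 months by each of the 3 sums, at 0.656 against 5.31 by the endothelial and 0.0301 against 0.576 by the peritubular one. Of the markers, Pdgfra at 6 months was at 0.233 of its 3-week level (0.180 to 0.299) and Dpt at 0.123 (0.0665 to 0.211), both above the 0.0416 of Col1a1 (0.0311 to 0.0547). Endothelial markers summed to 3.23 RPKM at 6 months against 5.01 at 3 weeks. How far the number of cells of each type bears on these ratios was not tested.

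**Figure D5:**
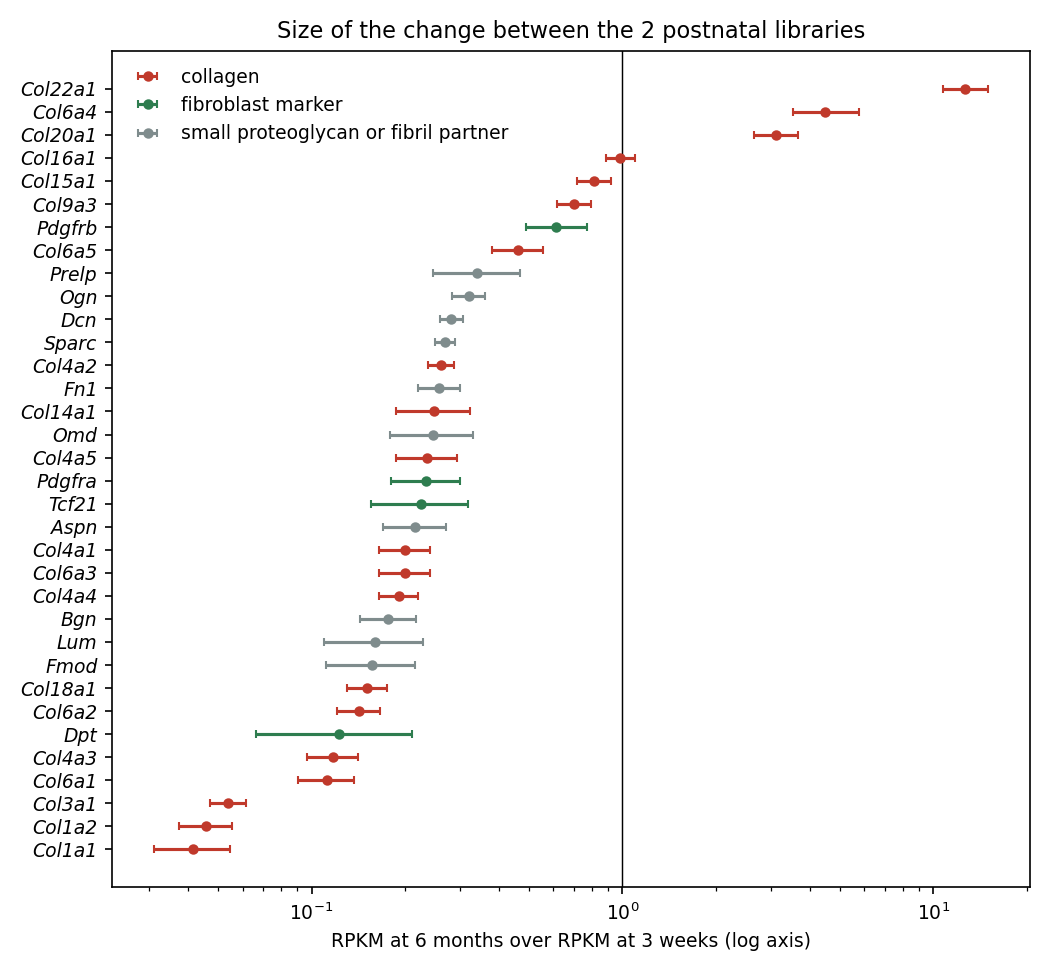
RPKM at 6 months over RPKM at 3 weeks (log axis) with exact 95% counting intervals, for collagens, fibroblast markers and small proteoglycans or fibril partners that reached 1 RPKM in either of these 2 libraries. Col1a1, Col1a2 and Col3a1 are the lowest at 0.0416 to 0.0541, and Col22a1 is the highest at 12.6.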

How the data were processed

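RNA was measured in 4 BALB/C mouse testis libraries, 1 per stage. The authors deposited RPKM values, which relate reads to gene model length and library total. Per the submitters' processing notes, TopHat2 and mm10 were used. Which program counted the reads, on which gene models, and how strand was handled is not given in the sources used here.

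Library totals were read off the commonest product of RPKM and annotated length in single-exon genes, which is the worth of 1 read. Each entry's smallest whole reads and single model length were then solved from its 4 values, within a relative tolerance of 1e-09, for 99.997% of the 59564 entries above 0 in every library. A common factor of reads and length can be lost, and an interval is then too wide, as for Col2a1 (recovered length 3015, annotated 9243), Col5a1 and Col5a2. Depths were 38903334 (E14), 34228140 (E18), 33952471 (3 weeks) and 35801602 (6 months) reads, and PCR copies are not independent molecules, so exact Poisson and Clopper-Pearson intervals at 95% cover counting error only. A count of 0 is given the exact upper limit of its interval.

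Differences are log2(RPKM + 1), later minus earlier stage, over 42964 entries that reached 1 RPKM in any library, called from 2-fold. The pseudocount of 1 understates the change of low genes. With 1 library per stage, no test was made. Classes, 6 pathway lists and 15 marker lists, and the members themselves, were chosen with earlier results of these data known. Any collagen could be named; of each pathway list, up to 3 genes per direction and comparison with the largest difference past 2-fold, and of each marker list its sum and highest genes. Lum, Dcn, Ogn, Lox, Loxl1, Loxl2, Pcolce, Fshr, Pdgfra, Dpt, Mia3, CTAGE5, Slc34a1, the cartilage markers and neighbouring genes were named besides where a comparison needed them. Gene positions and overlaps are from GENCODE vM21 (mm10), promoters from RefSeq (GRCm38.p6). Recovery and calls were tested on simulated data. Python 3.11.15, pandas 2.3.3, NumPy 2.4.6, SciPy 1.17.1 and matplotlib 3.10.9 were used. Alternatives were other pseudocounts, filters, fold limits and scalings.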

Additional observations from a re-analysis of the deposited data

How the results depend on the processing

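No collagen gene called higher or lower changed direction under any alternative. At E18 against E14 (8 higher, 7 lower), a minimum of 5 RPKM left 5 higher and 5 lower. A 4-fold limit left 0 higher and ribosomal protein scaling 4, each with 7 lower. Of all entries, 2.87%, 0.275% and 1.06% were higher under these settings, and 1.59%, 0.209% and 1.09% lower. Leaving E14 out of the filter, an alternative chosen after seeing the data, left 2 lower, beside 0.769% of all entries. The cartilage genes that passed through E14 alone had dropped out. At 3 weeks against E18 (3 higher, 23 lower), the minimum of 5 RPKM left 0 higher and 17 lower. The 4-fold limit left 1 higher and 11 lower, and ribosomal protein scaling 15 lower. Of all entries, 52.7% were higher and 14.9% lower with that minimum, 16.1% higher and 1.98% lower with the 4-fold limit, and 3.01% lower with that scaling. At 6 months against 3 weeks (2 higher, 10 lower), a pseudocount of 0.1 gave 5 higher and 17 lower, and no pseudocount 5 and 18. The 4-fold limit gave 1 higher and 4 lower, the minimum of 5 RPKM 1 and 8, and protein-coding scaling 1 and 10. Of all entries, 14.3% were higher and 31.0% lower with the pseudocount of 0.1, and 13.6% and 33.1% with none. The 4-fold limit gave 3.20% higher and 1.80% lower, the minimum of 5 RPKM 13.3% and 23.9%, and protein-coding scaling 7.37% and 17.6%. With Col2a1, Col11a1 and Col11a2 counted as fibrillar, the fibrillar share was 37.3% at E14 and 6.85% at 6 months, and the cartilage share 17.5% at E14 and 0.966% at E18, then 6.32% at 3 weeks and 10.6% at 6 months. Of all called entries, 61.9% were higher at E18 against E14 (47.9% with median-of-ratios and 49.1% with ribosomal protein scaling), 75.2% at 3 weeks against E18 (94.2% ribosomal, 63.7% protein-coding) and 40.8% at 6 months against 3 weeks (80.1% median-of-ratios, 54.8% ribosomal, 29.6% protein-coding). Scaling moved the median of all entries by −0.23 (median-of-ratios), 0.51 (ribosomal) and −0.26 (protein-coding) at 3 weeks against E18, and by 0.43 and 0.13 (median-of-ratios and ribosomal) at 6 months against 3 weeks. At 3 weeks against E18 the collagen median stayed below that of all entries, at −1.59 against 0.23, −0.90 against 0.97 and −1.63 against 0.20 under these 3 scalings. No paired analysis was possible because each stage has 1 library, and no library could be left out. Depth limits the low values: at 6 months Col5a2 rests on at least 3 reads and Col2a1 on at least 11, since a common factor can be lost.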
